A study of Mus musculus with 18 samples.

Results

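The regions described here are 4 windows of the mouse genome, in the mm9 build, where sites of open chromatin that differed between strains lay close together: chr1:84430000-85337000, chr8:19685000-20032000, chr9:3003000-3038000 and chr17:30356000-31055000. Sites were made by merging the peak lists of all 9 strains, and a site belonged to a window when its midpoint lay inside it. This gave 262 sites of 51957 in all, with 76 in the chromosome 1 window, 98 in the chromosome 8 window, 24 in the chromosome 9 window and 64 in the chromosome 17 window. The windows were chosen by how many of their sites were in the study's list of variable sites, so the variable shares and strain differences given below are a description of the selected regions and no test of them. Sites are numbered within each window in the order of their coordinates.

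The data are FAIRE-seq (formaldehyde-assisted isolation of regulatory elements, which recovers DNA not held by nucleosomes after crosslinking) of the livers of male mice fed a high-fat, high-sucrose diet for 8 weeks from 8 weeks of age. There were 18 samples, 2 mice from each of 9 strains. The recombinant inbred strains BXH19/TyJ and BXH2/TyJ were bred from C57BL/6J and C3H/HeJ, and the other groups are the classical inbred strains DBA/2J, CBA/J, BALB/cJ, AKR/J, A/J, C3H/HeJ and C57BL/6J. All groups received the same diet and no group received another treatment. The peak list of a strain joins its 2 mice, so a strain has 1 value per site and no replicate error, and each difference between strains below is a difference between lists, without a test.

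In each list a peak has a signal, the density of reads that the peak caller assigned to it, on a scale of its own. Signals are therefore given as percentiles, the rank of a peak among the peaks of its own strain, from near 0 for the weakest to 100 for the strongest. A strain was counted as having a site if any peak in its list shared 1 bp or more with that site, which is termed a call. The lists held from 26769 peaks in DBA/2J to 30613 in CBA/J. Signal minima were lowest in DBA/2J, BXH2/TyJ and C57BL/6J, at 0.0829, 0.0885 and 0.0835, against 0.107 to 0.261 in the other 6. Their signal medians were also the lowest, at 0.1176, 0.1452 and 0.1315, against 0.1921 to 0.6405. As each list has its own scale, the minima do not show that these lists reached weaker sites. A/J had 5920 sites that were called in no other strain, 43.0% of all sites called in a single strain. Promoters of the hepatocyte genes Apoa1 and Hnf4a carried a peak in all 9 strains and those of Apoa2 and Ttr in 8, whereas those of Alb and Fgb carried one in 2 and 1. None of the T cell, B cell and heart genes examined had a promoter peak in any strain, and among 2 neuronal genes Snap25 had one in 3 strains and Syt1 in none. A weaker site in liver tissue can come from fewer cells that carry it or from less open chromatin per cell, and these cannot be told apart here.

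Regulatory DNA that binds transcription factors is depleted of nucleosomes and is recovered by FAIRE. Recently duplicated DNA and satellite repeats are a special case. A short read from one copy can match several places, and reads that do are discarded when only unique alignments are kept, while DNA that is present in more copies in a mouse than in the assembly sends the reads of all its copies to the few places that the assembly holds. Segmental duplications, which are long stretches copied at high identity, are known to vary in copy number between inbred mouse strains, and a tandem duplication that contains Glo1 is known to segregate among laboratory mice. Copy number was not measured in this study. Major satellite is a tandem repeat that makes up pericentromeric DNA of mouse chromosomes and is packed as constitutive heterochromatin.

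Examples of the repeated sequence are printed before the values because they show how little can separate its copies. From the chromosome 9 window, site 17 holds tandem units that resemble major satellite. Its first complete unit in the printed frame and the one that follows are at chr9:3027538-3027771 and chr9:3027772-3028005 (mm9, + strand), and capitals in the second unit mark the bases that differ from the first. They were equal at 229 of 234 bases, 97.9%. They were taken as the adjacent units with the most equal bases in any site of the window, so this identity is the highest there. Both units lie within site 17.
site 17, first unit: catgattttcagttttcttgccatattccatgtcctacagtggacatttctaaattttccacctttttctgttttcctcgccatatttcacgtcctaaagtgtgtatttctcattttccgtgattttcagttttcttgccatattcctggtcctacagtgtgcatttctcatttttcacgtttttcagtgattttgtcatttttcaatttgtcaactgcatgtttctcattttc
site 17, second unit: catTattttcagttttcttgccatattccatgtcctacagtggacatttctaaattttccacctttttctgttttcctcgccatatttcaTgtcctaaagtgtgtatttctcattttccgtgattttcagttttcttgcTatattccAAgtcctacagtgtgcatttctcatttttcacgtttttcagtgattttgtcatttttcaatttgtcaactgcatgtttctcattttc
From the chromosome 8 window, 200 bases of site 43 at chr8:19784676-19784875 (+ strand) and of site 51 at chr8:19892877-19893076 (- strand) are shown, because both sites lie at starts of annotated genes and were called in every strain. Capitals in the second mark differences from the first, and 198 of 200 bases were equal. The stretch was taken where the 2 sites differ little, so its identity is above that of the whole sites.
site 43: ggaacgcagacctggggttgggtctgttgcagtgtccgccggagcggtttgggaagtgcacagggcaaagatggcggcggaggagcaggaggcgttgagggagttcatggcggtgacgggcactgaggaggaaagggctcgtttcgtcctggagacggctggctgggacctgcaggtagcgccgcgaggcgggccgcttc
site 51: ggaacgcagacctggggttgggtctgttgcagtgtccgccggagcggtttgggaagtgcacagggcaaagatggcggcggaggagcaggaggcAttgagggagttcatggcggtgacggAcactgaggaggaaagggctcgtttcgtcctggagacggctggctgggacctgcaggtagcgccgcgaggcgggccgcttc
From the chromosome 1 window, 200 bases of site 24 at chr1:85111419-85111618 and of site 56 at chr1:85283773-85283972 (both + strand) were equal at 195 of 200 bases, with differences again in capitals in the second.
site 24: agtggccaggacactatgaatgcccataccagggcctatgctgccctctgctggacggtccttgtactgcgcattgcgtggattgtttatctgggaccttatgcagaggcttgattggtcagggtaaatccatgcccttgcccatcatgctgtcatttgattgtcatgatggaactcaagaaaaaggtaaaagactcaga
site 56: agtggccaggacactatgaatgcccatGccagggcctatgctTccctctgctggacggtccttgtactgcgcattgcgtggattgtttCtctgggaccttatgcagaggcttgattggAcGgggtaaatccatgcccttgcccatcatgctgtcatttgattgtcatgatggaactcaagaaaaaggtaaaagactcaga
For contrast, the 200 bases upstream of the Glo1 start in the chromosome 17 window are at chr17:30749605-30749804 on the - strand. They lie in site 28 of that window, and all 100-base words of that site occurred once in the mm9 assembly. How many copies each strain carries was not measured. Capitals mark the 6 CpG dinucleotides.
Glo1, upstream: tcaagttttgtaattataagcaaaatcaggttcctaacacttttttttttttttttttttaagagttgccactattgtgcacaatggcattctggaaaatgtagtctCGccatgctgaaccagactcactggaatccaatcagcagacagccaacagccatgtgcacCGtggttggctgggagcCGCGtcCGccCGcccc

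Site density differed between the windows. There were 83.8 sites per Mb in the chromosome 1 window, 282 in the chromosome 8 window, 686 in the chromosome 9 window and 91.6 in the chromosome 17 window. Flanks of the same length as each window held, to the left and to the right, 13 and 0 sites on chromosome 1, 0 and 1 on chromosome 8, 1 and 0 on chromosome 9, and 29 and 43 on chromosome 17. Of the 4 windows, 3 abut unsequenced gaps of the assembly. The chromosome 1 window ends 6.68 kb before a gap of 2000 kb, the chromosome 8 window ends 6.71 kb before another of 2000 kb and holds one of 50 kb at chr8:19803129-19853128, and the chromosome 9 window begins 3 kb after the unsequenced start of its chromosome. Flanks on the side of those gaps are almost all unknown bases and give no density to compare. In the flanks of the chromosome 17 window, density was 41.5 sites per Mb to the left and 61.5 to the right.

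Of the 262 sites, 90 (34.4%) overlapped a site of the study's variable list, which held 2539 sites, against 4.87% of all merged sites. By window there were 24 of 76 sites (31.6%), 29 of 98 (29.6%), 19 of 24 (79.2%) and 18 of 64 (28.1%) on chromosomes 1, 8, 9 and 17. This is the property by which the windows were selected. At their edges, the first and last sites inside each window were in the variable list in all 4 windows, and the nearest sites outside were not in it. Just inside the left edge of the chromosome 17 window, site 1 had percentiles of 24.1 in A/J, 43.7 in AKR/J, 67.6 in C3H/HeJ, 62.1 in CBA/J and 27.7 in BXH2/TyJ and was not called in the other 4 strains. Just outside it, chr17:30347833-30348183 was called in A/J alone, at percentile 15.1. Just outside the right edge of the chromosome 8 window, a site 943 bp further on was called in DBA/2J alone, at percentile 17.1. One site of the study's list of common sites, also of 2539, fell in the windows, and it was on chromosome 1.

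Sites in the windows were called in few strains. Of the 262 sites, 26 (9.92%) were called in all 9 strains, against 26.6% of all merged sites, and 85 (32.4%) in 1 strain only, against 26.5% of all merged sites. The mean number of strains per site was 2.32 on chromosome 1, 3.94 on chromosome 8, 6.67 on chromosome 9 and 2.72 on chromosome 17, against 4.90 over all sites. The windows therefore did not share one pattern. Of the windows, chromosome 9 held sites found in most strains, and chromosomes 1 and 17 mostly sites found in a few. Site widths followed the same division, with medians of 265, 373, 592 and 331 bp on chromosomes 1, 8, 9 and 17, against 498 bp over all sites. Sites of 2 kb or more numbered 1, 12, 1 and 0 in the 4 windows, of 1180 such sites in all.

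**Figure D1:**
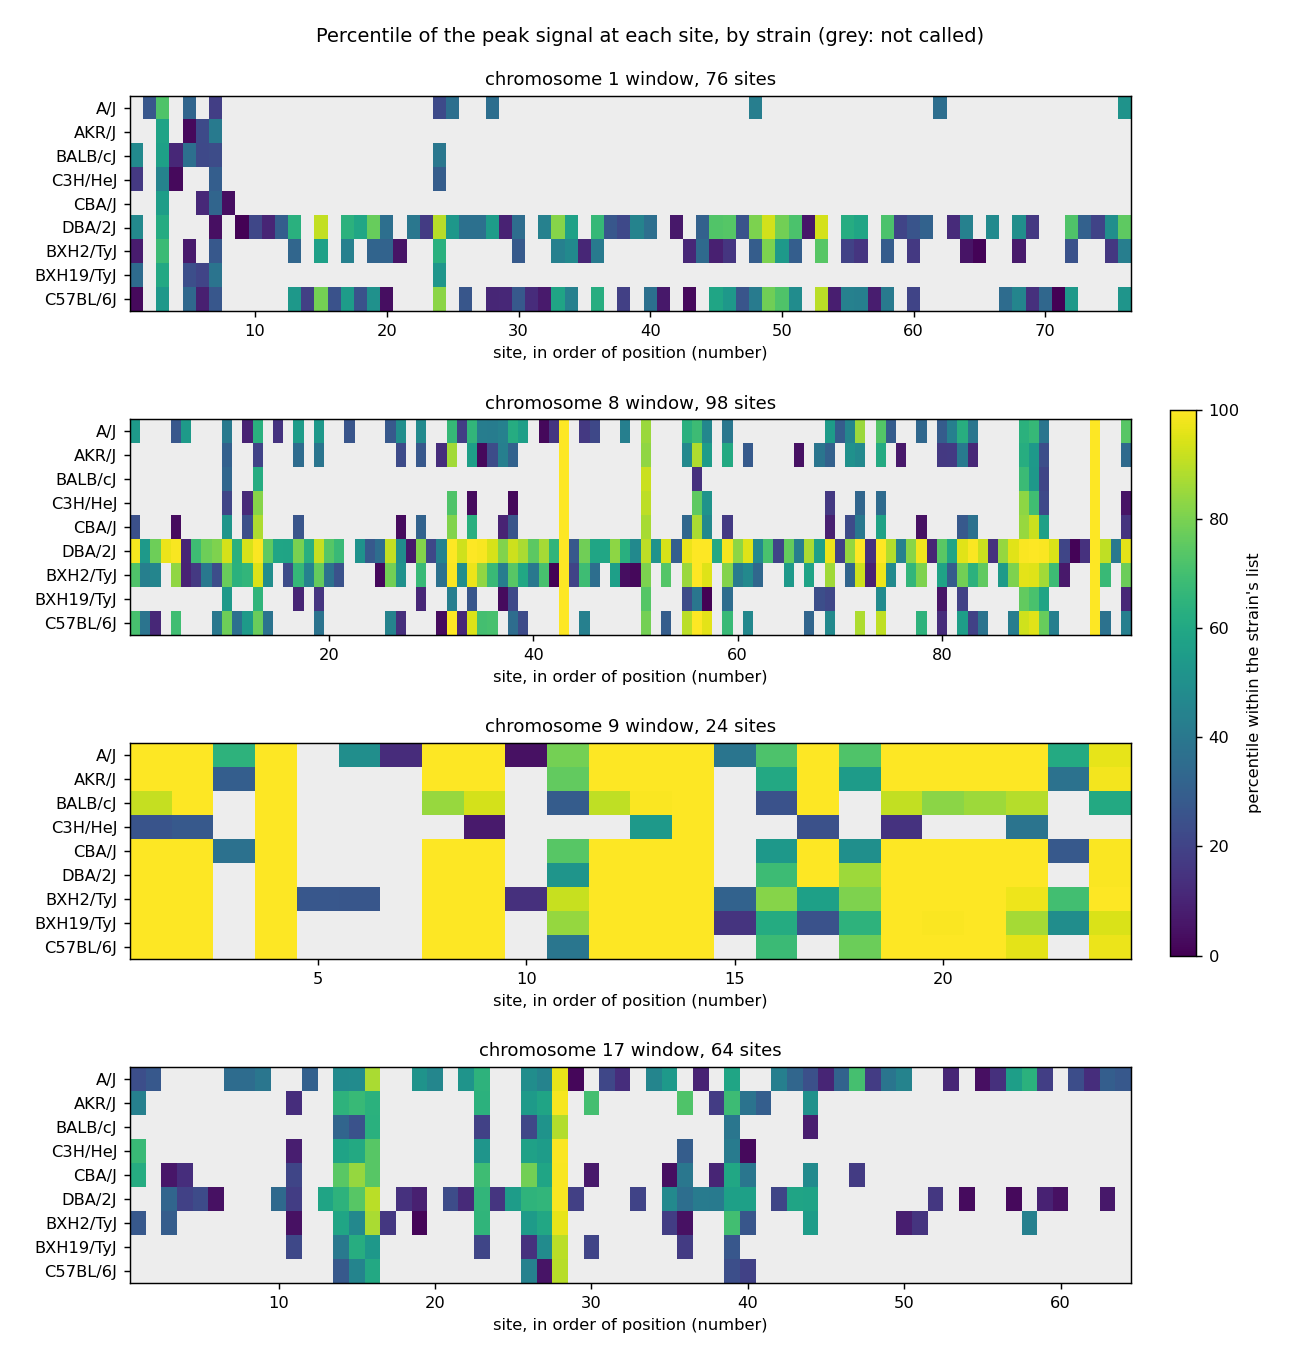
Calls of each site in each strain, with 1 panel per window, sites in order of position on the x axis and strains on the y axis, and the colour giving the percentile of the peak within the strain's list (grey, not called). DBA/2J, BXH2/TyJ and C57BL/6J have the most calls of the chromosome 1 panel, DBA/2J is called at all but 1 of the 98 sites of the chromosome 8 panel, and A/J and DBA/2J have more calls than any other strain on chromosome 17 (42 and 37 of 64 sites).

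The share of sites called differed between strains by window. Over all 51957 merged sites, the share called was 54.5% in A/J, 54.3% in AKR/J, 56.4% in BALB/cJ, 56.1% in C3H/HeJ, 56.9% in CBA/J, 46.7% in DBA/2J, 54.8% in BXH2/TyJ, 55.4% in BXH19/TyJ and 54.9% in C57BL/6J. These shares differ little, and that of DBA/2J was the lowest. Inside the windows on chromosomes 1 and 8, DBA/2J had the highest share, 75.0% (57 of 76) and 99% (97 of 98), with exact 95% intervals of 63.7 to 84.2% and 94.4 to 100%. Inside the windows on chromosomes 9 and 17, A/J had the highest share, 95.8% (23 of 24) and 65.6% (42 of 64). In the flanks of the chromosome 17 window the share of A/J was 72.4% (21 of 29) to the left, also the highest there, and 46.5% (20 of 43) to the right. All such intervals are Clopper-Pearson intervals that treat sites as independent, which neighbouring sites are not, and they cover counting error only.

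**Figure D2:**
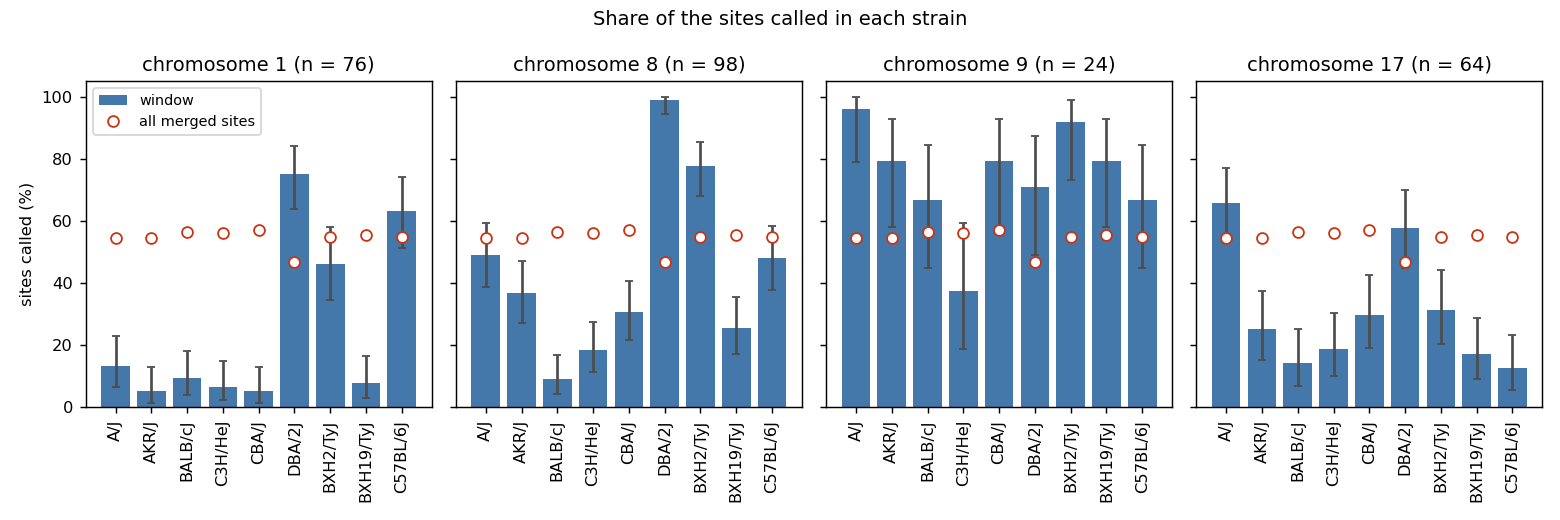
Share of sites called in each strain (y axis, percent) in the 4 windows (bars, with lines for exact 95% intervals over sites) and over all 51957 merged sites (circles, the same in each panel). Over all sites the strains lie between 46.7 and 56.9%, while in the chromosome 8 window they spread from 9.18% in BALB/cJ to 99% in DBA/2J.

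The chromosome 9 window is 35 kb at the centromeric end of the assembled chromosome. All 24 of its sites had a near-identical partner in the window, defined as an alignment of at least 95% identity over at least 50% of the shorter site, and the 102 pairs all ran in the same orientation. Of the 25-base words of the window, 85.3% had occurred earlier in it on the same strand, most often 234 bp before, then 702 and 468 bp before, which are multiples of the length of the units printed above. Sites covered 50.1% of the window. Their median GC content was 34.7%, against 53.9% over all sites, and their observed-to-expected CpG ratio was 0.768, against 0.315. The annotation placed 11 protein-coding gene models here, all with provisional names such as Gm10718 and Gm11168 and with no known role, or 314 per Mb against 8.42 per Mb over the assembled chromosomes.

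Peaks of the window were among the strongest of most lists. Those in the top 1% of their list numbered 13 in A/J, 14 in AKR/J, 6 in BALB/cJ, 3 in C3H/HeJ, 14 in CBA/J, 14 in DBA/2J, 13 in BXH2/TyJ, 13 in BXH19/TyJ and 13 in C57BL/6J. C3H/HeJ and BALB/cJ were the strains with few. Site 14 (chr9:3023216-3026158, 2943 bp, over the starts of Gm10718 and Gm10717) was at percentiles of 99.9733 to 99.9837 over the 9 strains. Site 4 (chr9:3006547-3007144) was at 99.9309 in C3H/HeJ and 99.9508 to 99.9575 in the others. Percentiles cannot separate strains at the very top of their lists. The site at the start of the chromosome, just outside the window (chr9:3000001-3003170), was also near the top in every strain, at 99.9605 to 99.9706. Yet its log2 signal over the median of the list was 4.53 in C3H/HeJ and 5.61 in BALB/cJ, and 6.65 to 7.53 in the other 7.

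Other sites of the window did separate them. Site 2 (chr9:3004312-3004935, at the start of Gm11168) was at percentile 28.1 in C3H/HeJ and at 99.9 in each of the other 8 strains. Site 1 (chr9:3003316-3003729) was at 26.2 in C3H/HeJ and 91.1 in BALB/cJ, and at 99.9 in the remaining 7. At 13 sites the median was at least 99 over the 7 strains other than C3H/HeJ and BALB/cJ. C3H/HeJ had a call at 9 of them, in its top 1% at 2 and otherwise between 7.28 and 54.0. The calls of BALB/cJ covered all 13, in its top 1% at 5 and otherwise between 82.7 and 93.4. At sites 2, 13 and 17 C3H/HeJ was at 28.1, 54 and 24.7, while BALB/cJ was in its top 1%. Over the 8 sites called in all 9 strains, the median percentile was 33.3 in C3H/HeJ and 96.4 in BALB/cJ, and 99.9 over the other strains.

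C3H/HeJ had the fewest calls of the window. It was called at 9 of 24 sites (37.5%, exact interval 18.8 to 59.4%), and the other strains at 16 to 23. When peaks had to cover 50% of the site, its share was 12.5%, and with the 20000 strongest peaks of each list it was 19%. The commonest pattern after the sites called in all strains was every strain but C3H/HeJ, at 7 sites. Site 12 (chr9:3020283-3020744, an exon of Gm11167) was at 99.9 in A/J, AKR/J, CBA/J and BXH2/TyJ, at 99.8 in DBA/2J, BXH19/TyJ and C57BL/6J, at 90.6 in BALB/cJ, and was not called in C3H/HeJ. Site 11 (chr9:3018203-3019477, an exon of Gm10719), its neighbour with the same strains, was at 79.2 in A/J, 76.1 in AKR/J, 29 in BALB/cJ, 74.2 in CBA/J, 52.1 in DBA/2J, 91.5 in BXH2/TyJ, 84.2 in BXH19/TyJ and 39.2 in C57BL/6J. Site 24 (chr9:3037502-3038388, an exon of Gm10715) was at 96.1, 98.4, 60.9, 99.5, 99.6, 99.7, 94.4 and 97.1 in the same strains in the same order. So these neighbours of one pattern stood at different levels.

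Other sites of the window, most of them called in 5 strains or fewer, did not divide C3H/HeJ from all the rest. Site 17 (chr9:3027459-3028437, in an intron of Gm16869), whose units are printed above, was at 99.9 in A/J, AKR/J, BALB/cJ, CBA/J and DBA/2J, at 24.7 in C3H/HeJ, 57 in BXH2/TyJ and 25.1 in BXH19/TyJ, and was not called in C57BL/6J. Both parents of the BXH strains were low or absent here. BXH19/TyJ was also low, while BXH2/TyJ stood above both parents and below the remaining strains. Site 17 had the largest spread between strains of all sites in the window, with an SD of 41.2 percentile points. A strain without a call counts as 0 in this SD, as it does wherever the spread between strains is ranked here.

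The chromosome 8 window holds a palindrome-like arrangement around its 50 kb gap. Of its 98 sites, 48 had a near-identical partner in the window, in 31 pairs at a median identity of 98.4% and at distances of 25.7 to 288 kb. In 29 pairs the copies were inverted, and in 28 the pair spanned the gap. The midpoint between the inverted copies was the same for most pairs, since 23 of the 29 lay within 2.5 kb of 19844150, inside the gap. Over the whole window, 40.8% of 25-base words occurred earlier in it in inverted orientation and 16.3% on the same strand, the same-strand words most often 127249 bp before. Of the window's 100-base words, 42.5% occurred once in the assembly, against 93.8% in the left flank. The annotation gave 3 protein-coding genes, and 2610005L07Rik, which has no assigned role, had 48 of the sites in its body.

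**Figure D3:**
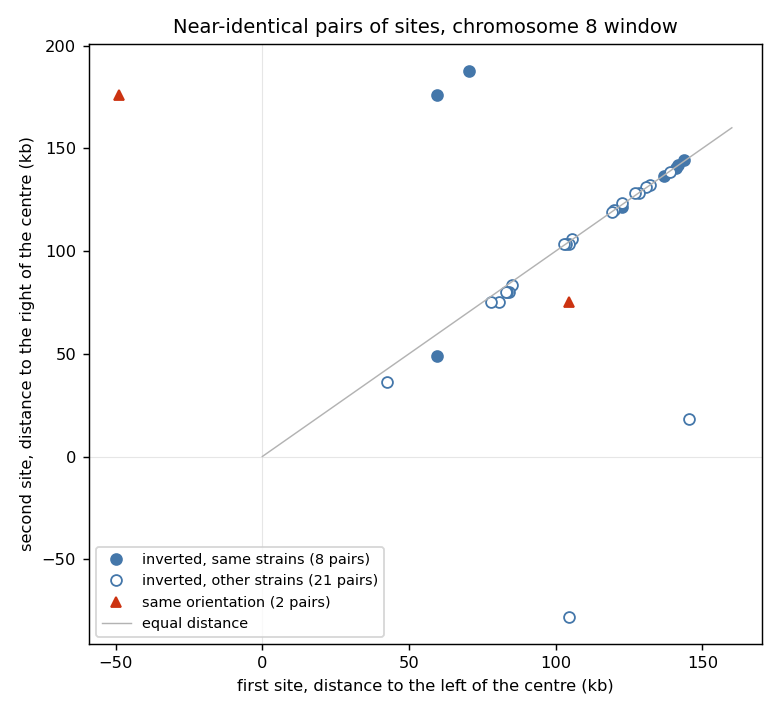
Positions of the 31 near-identical pairs of sites in the chromosome 8 window, as the distance in kb of the first site to the left (x axis) and of the second to the right (y axis) of the median midpoint of the inverted pairs. Filled and open circles are inverted pairs with the same and with other strains (8 and 21), triangles are the 2 pairs in the same orientation, and most circles lie on the line of equal distance.

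The chromosome 8 window was called almost throughout in DBA/2J and in part in the other strains. Calls numbered 97 in DBA/2J, 76 (77.6%) in BXH2/TyJ, 48 (49%) in A/J, 47 (48%) in C57BL/6J, 36 (36.7%) in AKR/J, 30 (30.6%) in CBA/J, 25 (25.5%) in BXH19/TyJ, 18 (18.4%) in C3H/HeJ and 9 (9.18%) in BALB/cJ. With 97 of 98 sites called in DBA/2J, the sites of any other strain were bound to be nearly all among them. All 47 sites of C57BL/6J were also sites of BXH2/TyJ, and all 9 of BALB/cJ were sites of every other strain. Other strains were not subsets of each other, since A/J and C57BL/6J shared 34 sites of their 48 and 47. The commonest patterns were DBA/2J with BXH2/TyJ at 18 sites, DBA/2J alone at 16, DBA/2J with BXH2/TyJ and C57BL/6J at 11, all 9 strains at 9, and all but BALB/cJ at 7. DBA/2J alone was 16.3% of the sites here, against 2.09% of all merged sites, and all 9 strains 9.18%, against 26.6%.

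Among DBA/2J, BXH2/TyJ and C57BL/6J, levels stood in the same order as calls. At the 47 sites called in DBA/2J, BXH2/TyJ and C57BL/6J, median percentiles were 94.9 in DBA/2J, 77.2 in BXH2/TyJ and 46.9 in C57BL/6J. DBA/2J was the highest of these 3 at 43 sites and C57BL/6J the lowest at 38. DBA/2J stood above BXH2/TyJ at 73 of the 76 sites that both had. Peaks in the top 1% of their list numbered 15 in DBA/2J, 4 in BXH2/TyJ, 4 in C57BL/6J and 2 in each of the other 6 strains. The wide reach of DBA/2J was therefore not confined to weak peaks. Over the strains as a whole, level did not follow the number of calls, since the median percentile of a strain's calls was 61.7 in BALB/cJ, which had the fewest, against 45.8 in A/J and 37.1 in AKR/J. Peaks of the window covered 70.7 kb in DBA/2J and 7.83 kb in BALB/cJ. The median peak was 376 bp wide in DBA/2J, as over its whole list (376 bp), and 869 bp in BALB/cJ, against 542 bp over its whole list.

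Where a strain with few calls had a peak in the window, it was often a site shared by all. Sites 43, 51 and 95 are copies of one sequence, at 97.2% identity between 43 and 51, 96.6% between 43 and 95 and 96.3% between 51 and 95. Site 43 (chr8:19784160-19785274, at the start of the pseudogene Gm10060) was at percentile 99.9 in 8 strains and 99.6 in C57BL/6J. Site 95 (chr8:20019662-20020626, at the start of 2610005L07Rik) was at 99.8 in DBA/2J and BXH2/TyJ and 99.9 in the other 7. Site 51 (chr8:19892418-19893311, at the start of 6820431F20Rik) was lower in every strain, at 84.8 in A/J, 83.4 in AKR/J, 92.1 in BALB/cJ, 90 in C3H/HeJ, 86.8 in CBA/J, 90.2 in DBA/2J, 80.3 in BXH2/TyJ, 73.6 in BXH19/TyJ and 79.1 in C57BL/6J. By percentile, none of these 3 copies at gene starts placed DBA/2J above BALB/cJ. Sites 43 and 95 were near the top of every list, where percentiles cannot separate strains. Over the 9 sites of the window called in all strains, the median log2 signal over the list's median was 2.00 in DBA/2J and 0.405 in BALB/cJ.

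The sites with the largest spread between strains followed the order of DBA/2J, BXH2/TyJ and C57BL/6J. Site 5 (chr8:19695990-19696280, an exon of Gm6483) was at 99.2 in DBA/2J, 83.3 in BXH2/TyJ, 69.2 in C57BL/6J, 27.0 in A/J and 2.90 in CBA/J. Site 35 (chr8:19762340-19764643) was at 99.2 in DBA/2J, 83.5 in BXH2/TyJ, 69.9 in C57BL/6J, 42.3 in A/J and 2.67 in AKR/J. Site 78 (chr8:19963065-19963684, in an intron of 2610005L07Rik) was at 98 in DBA/2J, 80.7 in BXH2/TyJ, 64.5 in C57BL/6J, 33.5 in A/J and 4.33 in CBA/J. None of these sites was called in BALB/cJ, C3H/HeJ or BXH19/TyJ. Sites 2 and 3, in an intron of Gm6483, formed the first of the longest runs of one pattern, with percentiles of 54.0 and 77.9 in DBA/2J, 43.2 and 45.4 in BXH2/TyJ and 38.4 and 11.1 in C57BL/6J.

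The window held 12 of the series' widest sites, those of 2 kb or more, and all 12 were in the variable list. The widest, site 55 (chr8:19917089-19922067, 4979 bp, in an intron of 2610005L07Rik), was at 97.2 in DBA/2J, 85.0 in BXH2/TyJ, 89.6 in C57BL/6J, 63.6 in A/J, 47.0 in AKR/J, 33.5 in CBA/J and 23.1 in BXH19/TyJ, and was not called in BALB/cJ or C3H/HeJ. Its neighbour, site 56 (chr8:19922497-19925880, 3384 bp), was called in all strains, at 99.8 in DBA/2J, 99.7 in BXH2/TyJ, 99.9 in C57BL/6J, 88.0 in AKR/J, 87.3 in CBA/J, 75.1 in C3H/HeJ, 68.7 in A/J, 39.2 in BXH19/TyJ and 14.3 in BALB/cJ. Here C57BL/6J and DBA/2J both stood near the top of their lists, where percentiles cannot separate strains.

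Copies carried like values in some pairs and not in others. Over the 31 pairs, the median difference in percentile between the copies, over strains called at both, was under 10 points in 8 pairs and over 25 points in 15, with a middle value of 20.3. The percentile of a site in a strain is that of its strongest peak there. In a wide site that peak can lie outside the part aligned to the copy, and how often it did was not tested. Sites 10 and 90, 281 kb apart and 95.1% identical, were at 93.6 and 99.3 in DBA/2J, 77.2 and 86.0 in BXH2/TyJ, 78.0 and 76.8 in C57BL/6J, 53.7 and 58.4 in BXH19/TyJ, 52.2 and 56.7 in CBA/J, 41.0 and 38.7 in A/J, 32.9 and 21.0 in BALB/cJ, 30.5 and 24.2 in AKR/J and 21.0 and 22.3 in C3H/HeJ. These and the next pair were picked after their values were seen, as alike. Sites 38 and 98, 98.8% identical over 2964 bp, were at 92.2 and 95.9 in DBA/2J, 74.2 and 77.5 in BXH2/TyJ, 61.8 and 74.1 in A/J, 35.7 and 43.0 in C57BL/6J, 31.6 and 34.5 in AKR/J, 26.3 and 15.1 in CBA/J, 21.9 and 11.2 in BXH19/TyJ and 2.11 and 5.29 in C3H/HeJ, and neither was called in BALB/cJ. A pair picked as unlike was sites 28 (chr8:19740464-19740614) and 74 (chr8:19945888-19949477). They were aligned over 151 bp, which is all of site 28 but only a small part of site 74. Site 28 was called in DBA/2J only, at 6.61, while its partner site 74 was at 99.7 in DBA/2J, 97.4 in BXH2/TyJ, 90.4 in C57BL/6J, 73.4 in A/J, 61.0 in AKR/J, 57.5 in CBA/J, 48.3 in BXH19/TyJ and 35.0 in C3H/HeJ.

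Over the 31 pairs, both copies were called in the same strains in 9 (29%), against 8.73% of the other pairs of sites in the window. These 9 include sites 10 and 90, sites 13 and 88 and the pairs among sites 43, 51 and 95, which are sites called in all strains and make up most of the 9. The copies of a pair differed on average in 1.68 strains and other pairs in 3.15. By strain, both copies were called or both not called in 21 pairs in C57BL/6J, 22 in BXH19/TyJ, 23 in CBA/J, 24 in A/J, 25 in AKR/J, 27 in BALB/cJ, C3H/HeJ and BXH2/TyJ, and all 31 in DBA/2J, whose sites were nearly all called. In the chromosome 9 window, copies had the same strains less often than other pairs of sites, in 11.8% of pairs against 21.8%. In the chromosome 1 window the shares were 16.7% of 6 pairs of copies and 14.7% of other pairs. Reads that matched more than one place equally had been removed by the authors before peaks were called.

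The chromosome 1 window falls into a unique and a repeated stretch. Its first 8 sites, up to the end of Slc16a14 (a member of the monocarboxylate transporter family), had a median of 100% of their 100-base words found once in the assembly, and were called in 4.88 strains on average. The 68 sites beyond had a median of 24.9% and were called in 2.01 strains on average. Of those 68, 62 were called in no strain other than DBA/2J, BXH2/TyJ or C57BL/6J. By strain, 54 of the 68 were called in DBA/2J, 31 in BXH2/TyJ, 43 in C57BL/6J, 6 in A/J, 1 each in BALB/cJ, C3H/HeJ and BXH19/TyJ and 0 in AKR/J and CBA/J.

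In the unique stretch the 3 strains did not stand apart. Site 3 (chr1:84834935-84837029, 2095 bp), which covers the divergent starts of Trip12, a ubiquitin ligase gene, and Fbxo36, an F-box protein gene, was at 72.6 in A/J, 57.8 in AKR/J, 56.7 in BALB/cJ, 44.6 in C3H/HeJ, 55.6 in CBA/J, 61.4 in DBA/2J, 68.2 in BXH2/TyJ, 60.5 in BXH19/TyJ and 53.4 in C57BL/6J. Site 7 (chr1:84876206-84876596, in an intron of Fbxo36) was also called in every strain, and DBA/2J was the lowest there, at 3.98, with the others between 18.7 in A/J and 41.3 in AKR/J. Sites 3 and 7 were the 2 sites of the window called in all strains. The start of Dner, which encodes a neuronal Notch ligand, had a peak in A/J only, at 27.2, and a site in Slc16a14 was called in CBA/J only.

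In the repeated stretch, the patterns were DBA/2J, BXH2/TyJ and C57BL/6J together at 21 sites, DBA/2J alone at 17, C57BL/6J alone at 9 and DBA/2J with C57BL/6J at 8. DBA/2J alone was 22.4% and C57BL/6J alone 11.8% of the window's sites, against 2.09% and 2.43% of all merged sites. At the 21 sites of all 3, DBA/2J was the highest at 21 and BXH2/TyJ the lowest at 17, with medians of 71.5 in DBA/2J, 31.9 in BXH2/TyJ and 53.3 in C57BL/6J. The order of the last 2 was the opposite of that in the chromosome 8 window. Site 15 (chr1:85086997-85087743, over an exon of A530032D15Rik) was at 90.7 in DBA/2J, 56.8 in BXH2/TyJ and 79.0 in C57BL/6J. Site 49 (chr1:85272959-85273841, in an exon of the pseudogene Gm16026) was at 93.0 in DBA/2J, 80.4 in BXH2/TyJ and 78.4 in C57BL/6J. Site 53 (chr1:85276709-85277364, in an intron of Gm16026) was at 93.5 in DBA/2J, 73.9 in BXH2/TyJ and 89.7 in C57BL/6J. At each of these 3 sites, none of the other 6 strains was called.

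A near-identical pair of sites of the stretch, printed above, differed in their strains. Site 24 (chr1:85111343-85111626) was at 89.3 in DBA/2J, 63.6 in BXH2/TyJ, 82.8 in C57BL/6J, 52.5 in BXH19/TyJ, 39.7 in BALB/cJ, 29.6 in C3H/HeJ and 22.5 in A/J. Site 56 (chr1:85283773-85283976) was at 58.8 in DBA/2J, 15.4 in BXH2/TyJ and 43.2 in C57BL/6J and was called in no other strain. C130026I21Rik, whose body spans much of the stretch, held 35 of the 76 sites, of which 28 were called in DBA/2J, 14 in BXH2/TyJ, 22 in C57BL/6J, 3 in A/J and at most 1 in each other strain. Gm16026 held 16. The annotation listed 23 genes in the window, of which 10 are pseudogenes and 7 protein-coding.

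DBA/2J, BXH2/TyJ and C57BL/6J, the strains with the calls of the chromosome 1 window, also had the lowest signal minima and medians, on scales of their own. Part of their sites were weak within their own lists, as site 9 was at percentile 0.415 in DBA/2J, but sites 15, 49 and 53 were not. With only the 20000 strongest peaks of each list, 48 of the 76 sites remained, and the share of sites called was 91.7% in DBA/2J, 25% in BXH2/TyJ and 50% in C57BL/6J. The part of weak peaks in the result was not otherwise tested.

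The chromosome 17 window differs from the others in that its sequence is almost all unique in the assembly. Of its 100-base words 98.8% occurred once, against 99.1 and 93.5% in its flanks, and 1 of its 64 sites had under 50% of such words. It holds Btbd9, a BTB-domain protein gene, Glo1, which encodes glyoxalase 1, the enzyme that detoxifies methylglyoxal, Dnahc8, an axonemal dynein heavy chain gene, and Glp1r, the receptor gene of the incretin hormone GLP-1. The sites lay 16 in the body of Btbd9, 8 in Glo1, 25 in Dnahc8 and 7 in Glp1r, of which 3, 2, 6 and 5 were in the variable list.

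A/J and DBA/2J had the most calls of the 9 strains in this window, 42 (65.6%, exact interval 52.7 to 77.1%) and 37 (57.8%) of 64. BXH2/TyJ had 20, CBA/J 19, AKR/J 16, C3H/HeJ 12, BXH19/TyJ 11, BALB/cJ 9 and C57BL/6J 8 (12.5%, 5.55 to 23.2%, and 4.69% when peaks had to cover 50% of the site). The commonest patterns were A/J alone at 19 sites, DBA/2J alone at 12, both together at 8 and all 9 strains at 7. A/J is also the strain with the most sites of its own over all chromosomes, as given above. In Glp1r, A/J was called at 6 sites, DBA/2J at 3 and BXH2/TyJ at 1, and the other 6 strains at 0. Its start, site 58, was at 63.7 in A/J and 43.5 in BXH2/TyJ. In Glo1, DBA/2J was called at all 8 sites, A/J at 5, C57BL/6J at 3 and each other strain at 4.

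The 7 sites called in all strains let levels be compared. Their median percentile was 49.0 in A/J, 64.7 in AKR/J, 39.4 in BALB/cJ, 58.1 in C3H/HeJ, 74.6 in CBA/J, 65.7 in DBA/2J, 59.8 in BXH2/TyJ, 48.3 in BXH19/TyJ and 44.0 in C57BL/6J. Over the 20 such sites of the flanks, the medians were 65.1, 73.2, 75.0, 68.8, 72.9, 54.8, 69.3, 71.1 and 69.6 in the same order. BALB/cJ, BXH19/TyJ and C57BL/6J were thus the 3 lowest in the window but not in the flanks. A/J, AKR/J, C3H/HeJ, CBA/J, DBA/2J and BXH2/TyJ were above C57BL/6J at all 7 sites, BXH19/TyJ at 5 and BALB/cJ at 4. In the flanks, the counts above C57BL/6J were 9 of 20 in A/J, 12 in AKR/J, 12 in BALB/cJ, 15 in C3H/HeJ, 15 in CBA/J, 10 in DBA/2J, 12 in BXH2/TyJ and 13 in BXH19/TyJ.

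**Figure D4:**
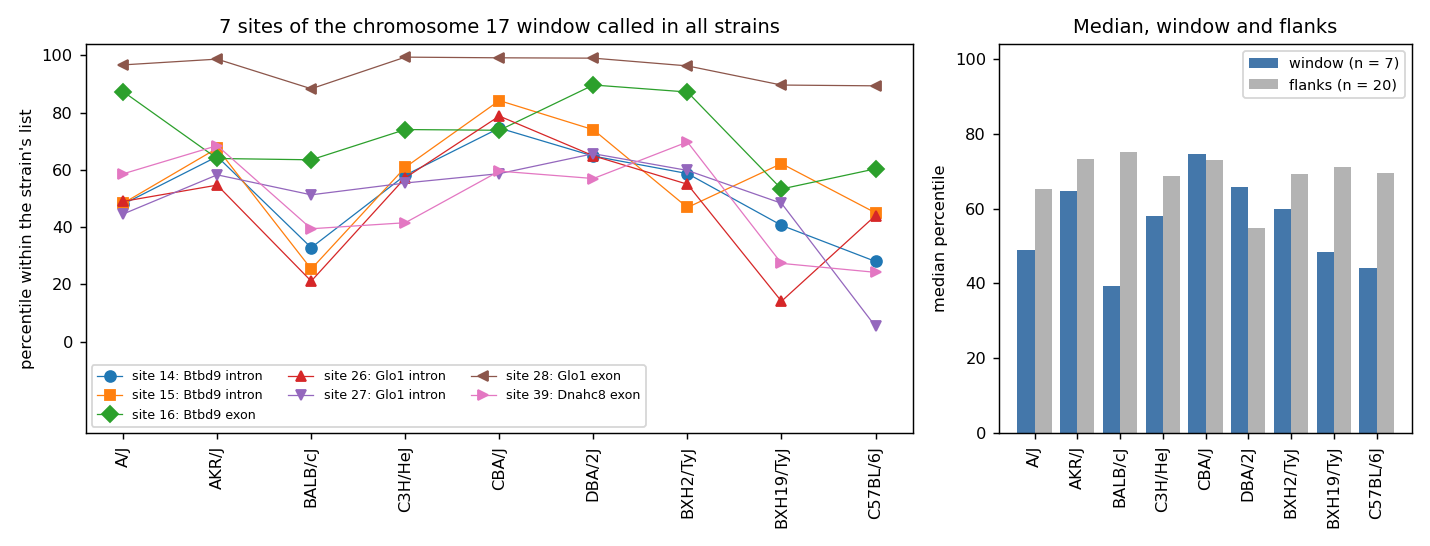
Percentile within the strain's list of the 7 sites of the chromosome 17 window called in all 9 strains (left, lines join one site across strains), and median percentile of these sites and of the 20 such sites of the flanks (right). BALB/cJ, BXH19/TyJ and C57BL/6J have the lowest medians in the window (39.4, 48.3 and 44.0) and medians of 69.6 to 75.0 in the flanks.

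Sites 28, 26 and 23 repeated this order, and site 27 did so only for C57BL/6J. Site 28, the Glo1 start (chr17:30748349-30749886), was the strongest site of the window, at 96.7 in A/J, 98.7 in AKR/J, 88.4 in BALB/cJ, 99.4 in C3H/HeJ, 99.2 in CBA/J, 99 in DBA/2J, 96.3 in BXH2/TyJ, 89.6 in BXH19/TyJ and 89.4 in C57BL/6J. The lowest 3 were BALB/cJ, BXH19/TyJ and C57BL/6J, all below 90. Site 26, in a Glo1 intron (chr17:30743004-30744805, 1802 bp, the widest of the window), was at 49.0, 54.7, 21.1, 57.2, 78.8, 64.9, 55.0, 14.1 and 44.0 in the same strains in the same order. Site 23, also in a Glo1 intron (chr17:30738751-30739696), was at 64.6, 64.3, 19.5, 52.3, 69.0, 65.7, 65.6 and 21.1 in the first 8 of them and was not called in C57BL/6J. Site 27, in a Glo1 intron, was at 5.28 in C57BL/6J and at 44.6 to 65.7 in the other 8, of which A/J was the lowest.

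Sites of Btbd9 and Dnahc8 followed in part. Site 16, the Btbd9 start (chr17:30712474-30713874), was at 87.4 in A/J, 64 in AKR/J, 63.5 in BALB/cJ, 74.1 in C3H/HeJ, 73.8 in CBA/J, 89.7 in DBA/2J, 87.2 in BXH2/TyJ, 53.3 in BXH19/TyJ and 60.4 in C57BL/6J, so that AKR/J stood close to BALB/cJ here. Site 15, in a Btbd9 intron (chr17:30707165-30707513), was at 48.3, 67.6, 25.3, 60.9, 84.2, 74.0, 46.9, 62.2 and 45.0 in that order, with BXH19/TyJ among the higher strains. Site 44, in a Dnahc8 intron (chr17:30818605-30818940), was at 24.4 in A/J, 50.4 in AKR/J, 8.07 in BALB/cJ, 47.7 in CBA/J, 57.9 in DBA/2J and 55.2 in BXH2/TyJ and was not called in C3H/HeJ, BXH19/TyJ or C57BL/6J. Site 39, in a Dnahc8 exon, was called in all strains and was highest in BXH2/TyJ, at 69.8, and lowest in C57BL/6J, at 24.2. Site 1, in a Btbd9 exon, has its values given above with the window's edge. The longest run of one pattern was sites 7 to 9, in Btbd9, called in A/J alone, at 35.3 for the first (chr17:30636528-30636836) and 39.1 for the last (chr17:30649916-30650229).

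Long blocks of neighbouring sites with the very same strains were not a feature of the windows. Leaving out runs called in all 9 strains, the longest run was 4 sites on chromosome 1 (sites 9 to 12, from chr1:84959384-84959552 to chr1:85022482-85022682, DBA/2J alone, at 0.415 for the first and 29.9 for the last), 2 on chromosome 8, 2 on chromosome 9 and 3 on chromosome 17. Over all sites, the longest such run was 15, and 95 of 35857 runs (0.265%) had 4 sites or more. Neighbouring sites had the same strains in 16% of neighbour pairs on chromosome 1, 8.42% on chromosome 8, 9.52% on chromosome 9 and 16.9% on chromosome 17, against 4.79% over all sites, leaving out pairs called in all 9. With those pairs counted, the shares were 16%, 10.3%, 17.4% and 22.2%, against 12.3% over all sites. Pairs of sites at any distance in the same window, near-identical copies left out, had the same strains in 14.7%, 8.73%, 21.8% and 14.3%. On chromosome 8, neighbouring sites mostly differed in which strains joined DBA/2J.

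The recombinant strains carry at each locus the DNA of C57BL/6J or of C3H/HeJ, so their calls can be set beside those of the parents at sites where exactly 1 parent was called. On chromosome 8, BXH2/TyJ matched C57BL/6J, by being called or not called where it was, at all 29 such sites (100%, exact interval 88.1 to 100%) and BXH19/TyJ at 5 of 29 (17.2%, 5.8 to 35.8%). On chromosome 1, BXH2/TyJ matched it at 26 of 45 sites (57.8%, 42.2 to 72.3%) and BXH19/TyJ at 3 of 45 (6.67%, 1.40 to 18.3%). In all 29 of the chromosome 8 sites and 44 of those on chromosome 1, C57BL/6J was the parent that was called. At those 44, BXH2/TyJ was called at 25 (56.8%, 41 to 71.7%) and BXH19/TyJ at 2 (4.55%). Over all sites called in C57BL/6J and not in C3H/HeJ, BXH2/TyJ was called at 32.4% and BXH19/TyJ at 33.6%, so BXH2/TyJ stood above its own share in both windows and BXH19/TyJ below. On chromosome 9 both matched C57BL/6J at 8 of 9 sites, and on chromosome 17, with 4 such sites, BXH2/TyJ matched it at 0 and BXH19/TyJ at 1.

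BXH2/TyJ also went past both parents. On chromosome 8 it was called at 29 of the 51 sites where neither parent was, against 4 in BXH19/TyJ. Calls of this kind also occurred elsewhere. Over all merged sites, neither parent was called at 16895, and of these BXH2/TyJ was called at 3315 and BXH19/TyJ at 2493. On chromosome 8, percentiles of BXH2/TyJ were above those of C57BL/6J at most of the sites they shared, as the medians of 77.2 and 46.9 show. The study aligned reads of the recombinant strains both to mm9 and to a C3H/HeJ pseudo-genome, and which of these alignments gave the lists used here is not stated. The part of that choice in these calls was not tested.

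How much of a site could receive uniquely placed reads was measured on the reference alone, as the share of its 100-base words, the read length, that occur once in the assembly on either strand. The medians per site were 40.2% on chromosome 1, 51.7% on chromosome 8, 42.6% on chromosome 9 and 100% on chromosome 17. Sites with under 50% of such words numbered 48 of 76 (63.2%), 47 of 98 (48.0%), 17 of 24 (70.8%) and 1 of 64 (1.56%). Together these were 113 of 262 sites (43.1%), against 1.1% of all merged sites. In the reference, the windows on chromosomes 1, 8 and 9 thus hold repeated sequence, and that on chromosome 17 holds almost none.

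**Figure D5:**
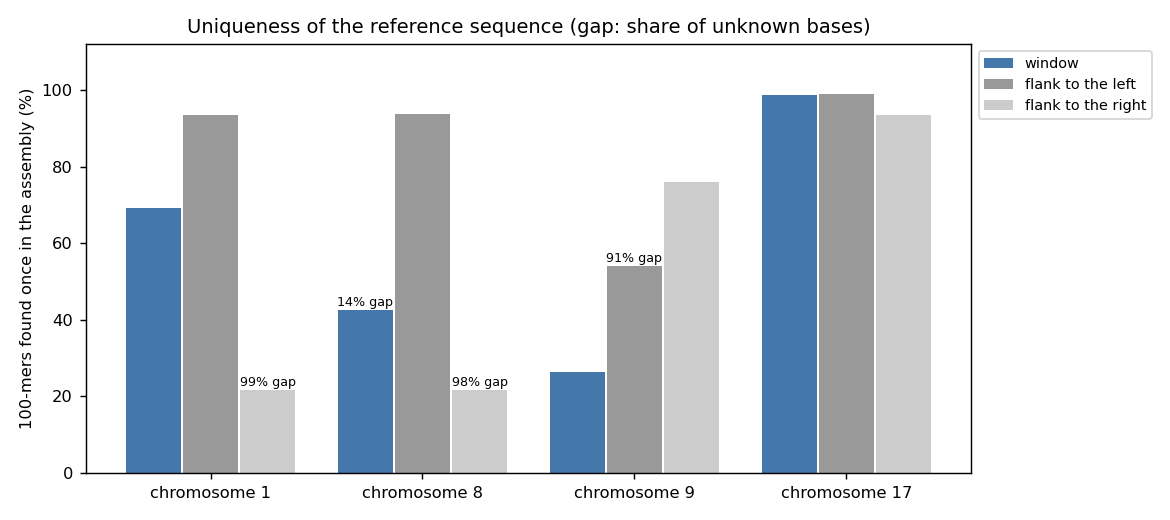
Share of all 100-base words found once in the mm9 assembly (y axis, percent) in each window and in its flanks of the same length, with the share of unknown bases written above bars that hold gaps. The windows stand at 69.1, 42.5, 26.4 and 98.8% on chromosomes 1, 8, 9 and 17, and only that on chromosome 17 stands near its left flank, at 99.1%.

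Word by word, 69.1% of the chromosome 1 window, 42.5% of the chromosome 8 window and 26.4% of the chromosome 9 window occurred once. Words found again within the same window made up 15%, 41.6% and 73.3% of these windows, and 0.686% of the chromosome 17 window. With exact 170-base words, the shares found once were higher, at 78.7%, 61.6% and 45.2% on chromosomes 1, 8 and 9. Exact matches in the reference do not show how many copies a strain carries or which of them its reads came from, so repeated sequence, copy number and chromatin state cannot be told apart at these sites. By the annotation the windows were not poor in genes as a group, with 7.72 protein-coding genes per Mb on chromosome 1, 8.65 on chromosome 8, 314 on chromosome 9 and 7.15 on chromosome 17, against 8.42 over the assembled chromosomes.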

How the data were processed

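Livers of 18 male mice, 2 from each of 9 strains, were profiled by FAIRE-seq. The authors aligned paired 100-base reads with Bowtie to mm9, altered at known SNPs of each inbred strain, kept uniquely aligned, properly paired and non-duplicate reads, called peaks per library with F-seq, kept 1 list per strain by the irreproducible discovery rate, and ranked sites by variability with DESeq. The deposited signal column of each list is an F-seq score whose scale is the list's own, so percentiles within a list were used. The lists themselves give no depth, and the read totals that the study states per library were not used here. Peaks of the 9 lists were merged and a call needed an overlap of 1 bp. Word counts, from exact matches of 100 bases on both strands, and alignments (blastn 2.17.0) used the mm9 assembly, with genes from its annotation. The intervals are exact at the 95% level. Python 3.11.15, numpy 2.4.6, pandas 2.3.3 and scipy 1.17.1 were used, and the word counting was tested on simulated sequence.

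The windows, members and lists were chosen with earlier results of these data known. Named sites were the ends of the longest run not called in all strains, the 3 with the highest percentile, the 3 with the largest SD between strains (0 where not called) and the widest of each window. Other sites named (1, 51, 10 and 90, 13 and 88, 28 and 74, 38 and 98, 24 and 56, 7, 27, 39 and 58, and site 13 on chromosome 9) were picked after their values were seen, as copies, gene starts or edges. No comparison had replicates within a list, so no test was made.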

Additional observations from a re-analysis of the deposited data

How the results depend on the processing

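No paired analysis was possible because each strain has 1 peak list that joins its mice and the lists carry no replicate numbers. Of 132 alternative values for the main comparisons, 108 stayed close to the reported value and 24 moved, and for the share of sites called per strain 97 stayed and 11 moved. Of those 11, the ones that moved by over 1.5 times were, with peaks covering 50% of the site, C3H/HeJ on chromosome 9 (12.5%) and C57BL/6J on chromosome 17 (4.69%), and, with the 20000 strongest peaks, C3H/HeJ (2.08%) and BXH2/TyJ (25%) on chromosome 1, AKR/J (22.7%), CBA/J (17%) and BXH19/TyJ (13.6%) on chromosome 8 and AKR/J on chromosome 17 (38.2%). With the 20000 strongest peaks of each list, sites fell in number to 48 on chromosome 1 and 34 on chromosome 17. Requiring identical start and end left 15.3% of the chromosome 8 sites in the variable list. The longest run on chromosome 8 was 4 over the inbred strains alone and 4 with the strongest peaks. Leaving out each strain in turn, it ranged from 2 to 4 on chromosome 8 (4 without BXH2/TyJ), from 1 to 2 on chromosome 9 (1 without C3H/HeJ) and from 3 to 5 on chromosome 17 (5 without CBA/J or without DBA/2J). On the log2 signal less the list's median, the strain range of the median was 0.60 on chromosome 1, 1.67 on chromosome 8 and 4.62 on chromosome 9. By merged sites, the strain range of median width was 252.5 bp on chromosome 1, 894 bp on chromosome 8 and 526.5 bp on chromosome 17. On chromosome 9, both recombinant strains matched C57BL/6J at 100% of sites when peaks had to cover 50% of the site (10 of 10) and with the strongest peaks (12 of 12). The share of words found once was 21.5% on chromosome 8 and 11.8% on chromosome 9 with 50-base words, and 45.2% on chromosome 9 with 170-base words. Sites with a partner numbered 2 on chromosome 1 at 98% identity and 3 on chromosome 17 at 90%. Apart from what each alternative changes by construction, the cause was not tested. Without replicate lists, a difference between strains cannot be set against the spread between mice of one strain.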
